A study of Homo sapiens with 12 samples.

Results

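Transcripts of 10 genes that write, erase or read chromatin marks, or remodel nucleosomes, were followed in melanoma cells during and after drug exposure. The genes, chosen by name for their links to drug tolerance, were UHRF1, HELLS, DNMT1, DNMT3A, DNMT3B, EZH2, KDM6B, KDM1A, KDM5A and KDM5B, 10 of the 28434 genes with a count in any library. All 10 passed the limit on low counts and were among the 15916 genes tested. A375, a human cell line from a skin melanoma with an activating BRAF mutation, was sequenced in 4 groups of 3 libraries. Control cells (CC) were kept in DMSO for 72 h. Treated cells (TC) were kept for 72 h in MAPKi, a mix of the BRAF inhibitor vemurafenib (500 nM) and the MEK inhibitor cobimetinib (500 nM). Persister cells (PC) had the same 72 h of MAPKi and then 2 days in drug-free medium, and recovered cells (RC) had 9 drug-free days. RNA came from the cytoplasmic fraction, and all groups were one line grown in the same medium. The labels do not say that the 3 libraries of a group came from separate cultures, so p-values measure the spread between these libraries only. PC and RC were each harvested on a day of their own, so day and group cannot be told apart there.

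DNA methylation at CpG sites is copied onto the new strand after replication by DNMT1, which UHRF1 brings to hemimethylated sites, and HELLS, a nucleosome remodeller, opens chromatin for that step, while DNMT3A and DNMT3B set methylation on sites that had none. EZH2 is the catalytic subunit of Polycomb repressive complex 2 (PRC2), which methylates histone H3 at lysine 27 (H3K27) and represses genes, and KDM6B removes that mark. KDM1A (LSD1), KDM5A and KDM5B remove methyl groups from lysine 4 of histone H3 (H3K4), a mark of active promoters and enhancers, and KDM5A and KDM5B are known from work on slow-cycling, drug-tolerant tumour cells.

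Total counts ran from 37773389 to 55567097 per library, and levels are given as CPM, which corrects counts for depth and TMM factor (3 counts were 0.0794 CPM by depth alone in the shallowest library). ETV4, a transcription factor gene driven by ERK, had a mean of 235 CPM in CC, 2.62 in TC, 1.73 in PC and 232 in RC. DUSP6, an ERK phosphatase gene, had 156, 3.94, 5.25 and 135 CPM in the same order, with a wide spread in CC (SD 122 CPM, n = 3). The melanocyte lineage genes SOX10 (553 to 1046 CPM in the group means), MITF (221 to 362) and DCT (407 to 6456) were expressed, whereas MLANA stayed between 0.524 and 1.58 CPM and TYR between 1.47 and 4.88. The 8 markers of other lineages summed to between 0.392 and 2.82 CPM in every library, with the highest sums in PC (2.15 to 2.82), mostly from KRT14, and CDH5 had no count in any library. The part of these genes in the results was not tested. The CC libraries were the most spread: the SD of all 10 genes was highest in CC, and 7 of the 10 had their highest CC level in replicate 3. In CC, the highest library was between 1.08 times (KDM1A) and 2.66 times (KDM6B) the lowest.

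Genes were compared with each other only per length, as CPM per kilobase (kb) of the main annotated transcript. On this scale KDM1A (61.6 ± 2.40 CPM per kb in CC; SD, n = 3) and DNMT1 (46.5 ± 4.64) held ranks 1 and 2 in all 4 groups, and DNMT3B was last in all 4, from 0.763 in TC to 2.00 in RC. In CC, EZH2 (18.7 ± 2.78), KDM5B (14.9 ± 2.62), UHRF1 (13.3 ± 2.05), KDM5A (11.3 ± 1.24) and HELLS (9.57 ± 1.86) followed, and neighbours in this stretch lay within their spread. KDM6B (4.84 ± 2.29), DNMT3A (3.06 ± 0.448) and DNMT3B were lowest. EZH2 held rank 3 in CC and RC but rank 7 in TC and PC, while KDM5A moved from rank 6 in CC to rank 3 in TC. The order depends on the length used: with the joined exons of all transcripts as the length, DNMT1 led in CC and KDM5A had rank 3 there. On that length KDM1A held ranks 2, 4, 5 and 3 in CC, TC, PC and RC, and HELLS, not DNMT3B, was last in TC. In bulk RNA, fewer cells expressing a gene and less of its RNA in each cell cannot be told apart.

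**Figure D1:**
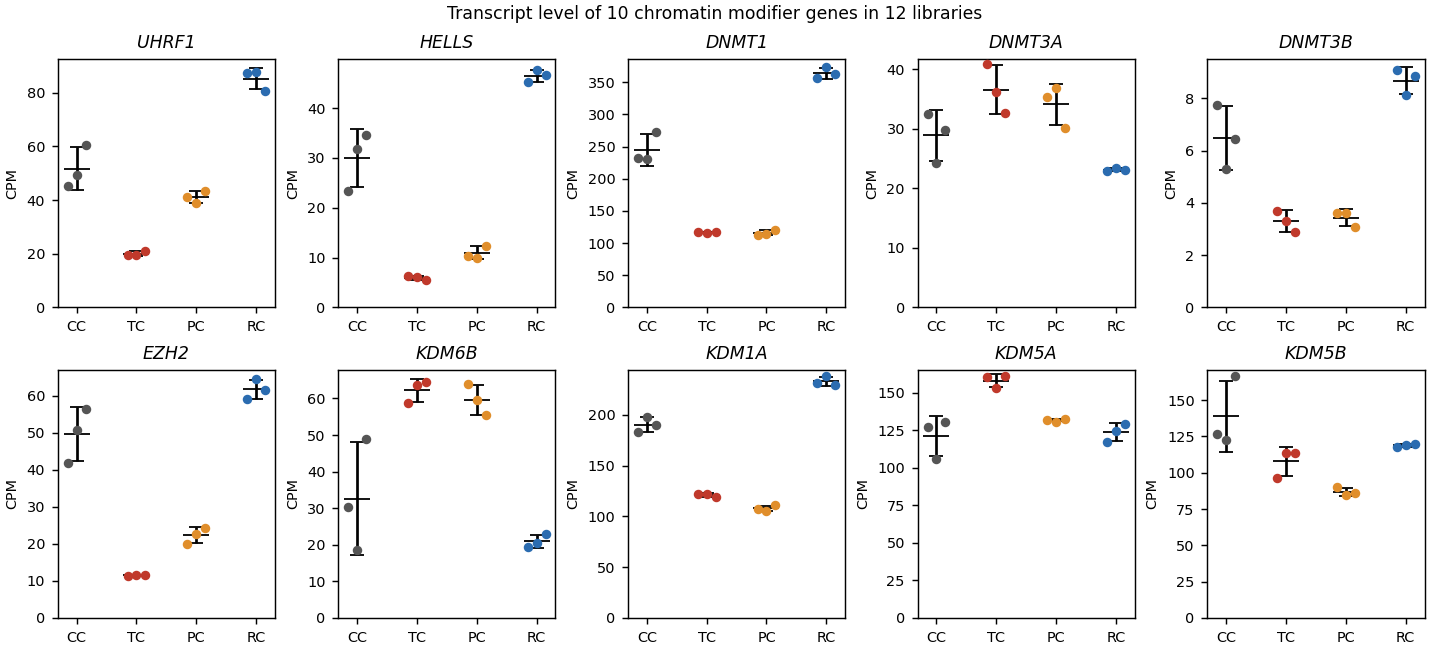
Level in CPM (vertical axis of each panel, from 0) of the 10 genes in CC, TC, PC and RC. Points are single libraries, and bars are the mean and SD of 3. UHRF1, HELLS, DNMT1, DNMT3B, EZH2 and KDM1A stand highest in RC, and KDM6B lies between 18.4 and 49.0 CPM in the 3 CC libraries.

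The comparison of TC with CC asked what 72 h of MAPKi did to these transcripts. HELLS and EZH2 were lowered most, to 19.9% and 23.1% of their CC level, followed by UHRF1 (38.6%), DNMT1 (47.7%) and DNMT3B (50.9%). KDM1A (63.6%) and KDM5B (77.6%) were also lower. KDM6B (1.91-fold), KDM5A (1.30-fold) and DNMT3A (1.27-fold) were higher. So 3 of the 10 genes rose and 7 fell at an adjusted p under 0.05, against 33.2% and 34.7% of all tested genes, and in all 10 the TC and CC libraries did not overlap, as in 68.0% of all tested genes. Past a 1.5-fold change, 5 fell (HELLS, EZH2, UHRF1, DNMT1 and DNMT3B) and 0 rose, against 19.3% and 16.1% of all genes. DNMT3B lost this call with DESeq2, without CC replicate 1 and without TC replicate 3, KDM6B rose past 1.5-fold with a replicate block and without CC replicate 3, and KDM1A fell past it without CC replicate 1. The median log2 fold change of the 10 was -0.81, beside -0.02 over all genes tested.

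The comparison of PC with CC asked what was left 2 days after drug removal. HELLS (36.5% of CC), EZH2 (44.9%), DNMT1 (47.3%), DNMT3B (53.0%), KDM1A (56.7%) and KDM5B (62.5%) were lower, UHRF1 stood at 79.4%, and KDM6B was 1.83-fold higher. At an adjusted p under 0.05, 1 gene was higher and 7 were lower, where the shares over all genes were 33.2% and 35.9%. The 5 genes lower past 1.5-fold were HELLS, EZH2, DNMT1, DNMT3B and KDM1A, against 19.9% of all genes, and UHRF1 was no longer one of them. DNMT3B lost this call in 5 of 19 alternatives (filtering at a summed count of 2, DESeq2, only the 2 groups compared, and without CC replicate 1 or PC replicate 3), while KDM5B gained it without CC replicate 2 and KDM6B, as a rise, without CC replicate 3. The median of the 10 was -0.75, beside -0.04 over all genes. KDM5A and DNMT3A did not pass the test and their libraries overlapped those of CC.

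PC was also set against TC directly, since both groups had received the drug. UHRF1 (2.06-fold), EZH2 (1.94-fold) and HELLS (1.83-fold) were higher in PC, and KDM5A, KDM5B and KDM1A were lower, at 83.4%, 80.5% and 89.0% of TC. The 3 higher and 3 lower genes compare with 12.2% and 12.5% of all genes tested. Past 1.5-fold, 2 of the 10 rose (UHRF1 and EZH2) and 0 fell, against 2.33% and 1.15% of all genes. The median of the 10 was -0.04, and that of all genes 0.00. The 3 lower calls were close to the threshold, and leaving out any single PC library removed all 3, as did leaving out TC replicate 3 (adjusted p between 0.0507 and 0.141). KDM5A also lost its call without TC replicate 1 (0.0729), KDM5B without TC replicate 2 (0.152) or RC replicate 1, 2 or 3 (0.0639 to 0.0746), and KDM1A without TC replicate 1 (0.0988), TC replicate 2 (0.105), or RC replicate 1 or 2 (0.0585 and 0.0655). Scaling by library totals, RLE or upper quartiles in place of TMM removed the calls of KDM5B and KDM1A (0.0503 to 0.102), as did a filter at a summed count of at least 2 (0.0518 and 0.0756). EZH2 fell below the 1.5-fold call without TC replicate 1 or 2 or PC replicate 2 or 3, which left UHRF1, and HELLS passed it without CC replicate 1.

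RC was set against CC to see whether levels returned after 9 drug-free days. UHRF1 (1.65-fold), HELLS (1.55-fold), DNMT1 (1.49-fold), EZH2 (1.24-fold) and KDM1A (1.22-fold) were higher in RC than in cells that had never met the drug, and DNMT3A was lower, at 80.0% of CC. The 5 higher genes and 1 lower gene compare with 18.2% and 19.1% of all genes tested. Past 1.5-fold, edgeR and DESeq2 each called 0 of the 10 (3.87% of all genes in edgeR), and by edgeR glmTreat UHRF1 alone had an unadjusted p under 0.05 for that threshold (0.0280). UHRF1 passed it without CC replicate 3. The median of the 10 was 0.30, beside 0.00 over all genes. From PC to RC, 7 genes rose and 2 fell (KDM6B and DNMT3A), against 35.7% and 34.2% of all genes, and 6 rose and 1 fell past 1.5-fold, against 20.2% and 18.5%, with a median of 1.08 beside 0.01. TC, PC and RC were set against the same CC libraries, so those 3 comparisons are not independent of each other.

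**Figure D2:**
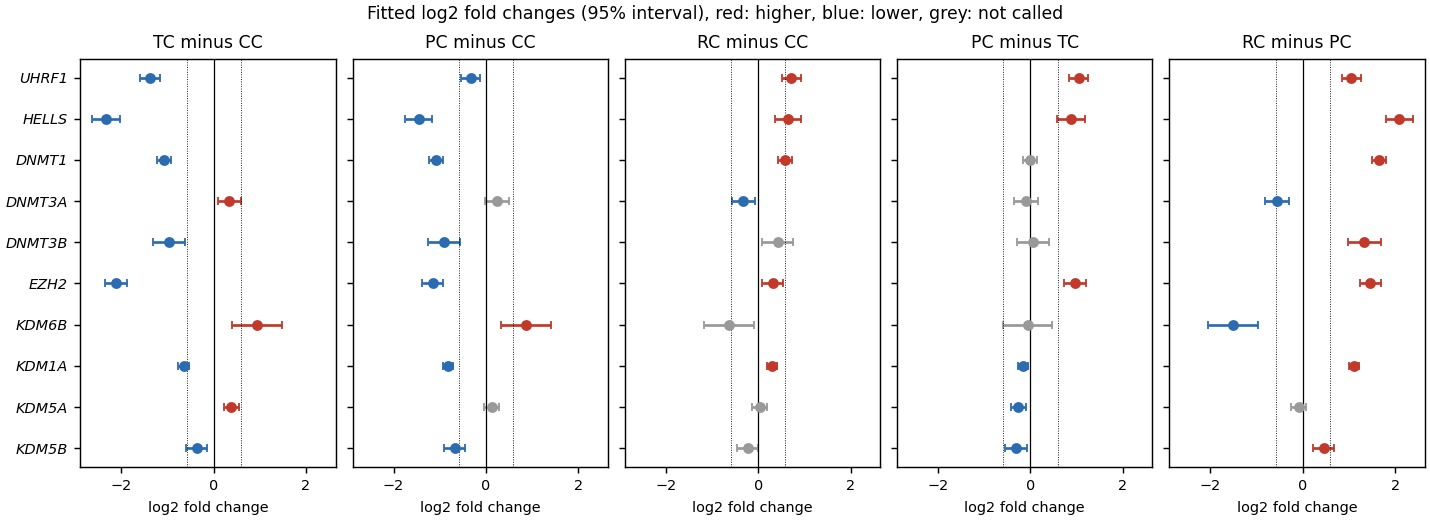
Fitted log2 fold change (horizontal axis) of the 10 genes in 5 comparisons, with 95% intervals not adjusted for the number of genes; red is higher, blue lower and grey not called, and dotted lines mark 1.5-fold. UHRF1, HELLS and EZH2 are lower in TC minus CC and higher in PC minus TC, where DNMT1 and DNMT3B lie at -0.01 and 0.06.

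UHRF1, the reader of hemimethylated CpG sites (GRCh38, chromosome 19, 4903080 to 4962154, plus strand), had 45.2, 49.3 and 60.6 CPM in the CC libraries, 19.5, 19.4 and 21.0 in those of TC, 41.1, 38.8 and 43.3 in those of PC and 87.3, 87.5 and 80.8 in those of RC. The groups fell into 4 separate bands, with PC just under CC and RC above all others. On the log2 scale UHRF1 changed by -1.37 in TC (SE 0.10, adjusted p 1.2e-07) and by -0.33 in PC (SE 0.10, adjusted p 0.00813), both against CC. The PC difference did not pass when only those 2 groups were fitted (adjusted p 0.0549). It rose by 1.04 from TC to PC (SE 0.10, adjusted p 1.8e-05) and by 1.05 from PC to RC (SE 0.10, adjusted p 9.1e-07). In RC it stood 0.72 above CC (SE 0.10, adjusted p 0.000176).

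HELLS, the remodeller needed for methylation of compact DNA (chromosome 10, 94545329 to 94613905, plus strand), had 23.4, 31.9 and 34.6 CPM in the CC libraries, 6.22, 6.16 and 5.51 in those of TC, 10.4, 9.98 and 12.4 in those of PC and 45.3, 47.7 and 46.6 in those of RC. Its 4 groups also did not overlap, and PC stayed far below CC. On the log2 scale HELLS changed by -2.33 in TC (SE 0.14, adjusted p 2.5e-08) and by -1.45 in PC against CC (SE 0.13, adjusted p 1.1e-06). It rose by 0.88 from TC to PC (SE 0.14, adjusted p 0.000724), and it rose by 2.09 from PC to RC (SE 0.14, adjusted p 4.4e-08), to 0.64 above CC (SE 0.13, adjusted p 0.00256).

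DNMT1, the methyltransferase that copies CpG methylation (chromosome 19, 10133342 to 10231286, minus strand), had 232, 230.0 and 273 CPM in the CC libraries, 117, 116 and 117 in those of TC, 113, 114 and 121 in those of PC and 357, 373 and 363 in those of RC. The TC and PC libraries overlapped, and both lay below every CC library. DNMT1 changed by -1.07 in TC (SE 0.07, adjusted p 4.8e-08) and by -1.08 in PC (SE 0.07, adjusted p 4.3e-08) against CC on the log2 scale. Between TC and PC it changed by -0.01, with a 95% interval from -0.16 to 0.14 (adjusted p 0.939). This interval ends below the rise of UHRF1 over the same 2 days (0.83 to 1.25), of EZH2 (0.72 to 1.19) and of HELLS (0.57 to 1.18). DNMT1 then rose by 1.65 from PC to RC (SE 0.07, adjusted p 1.4e-09), to 0.57 above CC (SE 0.07, adjusted p 9.6e-05).

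Among the genes that set new methylation, DNMT3B (chromosome 20, 32762385 to 32809359, plus strand) was read at low depth, with between 130 and 468 counts per library. It had 7.75, 5.29 and 6.44 CPM in the CC libraries, 3.71, 3.32 and 2.89 in those of TC, 3.61, 3.63 and 3.08 in those of PC and 9.09, 8.12 and 8.85 in those of RC. TC and PC overlapped and RC lay above every CC library. DNMT3B changed by -0.97 in TC (SE 0.16, adjusted p 0.000155) and by -0.92 in PC (SE 0.16, adjusted p 0.000238) against CC, and by 0.06 from TC to PC, with an interval from -0.29 to 0.41. It rose by 1.34 from PC to RC (SE 0.16, adjusted p 9.9e-06). Its level in RC differed from CC by a log2 value of 0.42 (SE 0.16, adjusted p 0.0517), which passed under 7 of 19 alternative settings, among them those without CC replicate 1 (0.57, adjusted p 0.0193), TC replicate 1 (0.0498) and TC replicate 3 (0.0496) and the fit with a replicate block (adjusted p 0.0366).

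DNMT3A (chromosome 2, 25227855 to 25342590, minus strand), which acts on the same kind of site, went the other way. It had 32.5, 24.3 and 29.8 CPM in the CC libraries, 40.8, 36.2 and 32.6 in those of TC, 35.3, 36.8 and 30.1 in those of PC and 22.9, 23.3 and 23.0 in those of RC. The lowest TC library lay just above the highest CC library, PC overlapped both, and RC lay below all others. DNMT3A rose by 0.34 in TC against CC (SE 0.12, adjusted p 0.0212), a call lost without CC replicate 2 (0.23, adjusted p 0.0813), without TC replicate 1 (0.26, adjusted p 0.0834) and in a fit of those 2 groups (adjusted p 0.0544). The PC difference was 0.24 (SE 0.12, adjusted p 0.0850) and passed without CC replicate 1 (0.33, adjusted p 0.0323), without PC replicate 3 (0.32, adjusted p 0.0367) and in DESeq2 (adjusted p 0.0462). DNMT3A fell by 0.56 on the log2 scale from PC to RC (SE 0.12, adjusted p 0.000961). Its RC difference from CC, -0.32 (SE 0.12, adjusted p 0.0485), passed narrowly. It was lost under 12 of 19 alternative settings, among them those without CC replicate 1 or 3, TC replicate 2, PC replicate 1 or 2, or RC replicate 1, 2 or 3 (adjusted p 0.0581 to 0.182).

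EZH2 (chromosome 7, 148807257 to 148884321, minus strand), which places the repressive H3K27 mark, had 41.8, 50.7 and 56.4 CPM in the CC libraries, 11.4, 11.5 and 11.6 in those of TC, 19.97, 22.7 and 24.3 in those of PC and 59.0, 64.3 and 61.6 in those of RC. The groups lay apart in the order TC, PC, CC and RC. EZH2 changed by -2.11 in TC (SE 0.11, adjusted p 6.9e-09) and by -1.15 in PC (SE 0.10, adjusted p 9.1e-07) against CC. It rose by 0.96 from TC to PC (SE 0.11, adjusted p 6.6e-05) and by 1.47 from PC to RC (SE 0.11, adjusted p 1.0e-07). The excess of RC over CC, 0.31 (SE 0.10, adjusted p 0.0313), was lost without CC replicate 1 (0.20, adjusted p 0.105), RC replicate 2 (adjusted p 0.1002) or RC replicate 3 (adjusted p 0.0654), and in a fit of those 2 groups (adjusted p 0.0832).

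KDM6B (chromosome 17, 7834217 to 7854796, plus strand) removes the mark that EZH2 places. KDM6B moved opposite to EZH2 in TC and PC against CC and from PC to RC, but was not called from TC to PC. It had 30.2, 18.4 and 49.0 CPM in the CC libraries, 58.7, 63.6 and 64.6 in those of TC, 63.9, 59.5 and 55.6 in those of PC and 19.4, 20.5 and 22.8 in those of RC. TC and PC overlapped each other and lay above every CC library, while RC lay between the lowest and the middle CC library. KDM6B rose by 0.93 in TC (SE 0.25, adjusted p 0.00485) and by 0.87 in PC (SE 0.25, adjusted p 0.00720) against CC. These values rested on the spread of CC: without CC replicate 2 they were 0.65 and 0.59, and without CC replicate 3 they were 1.36 and 1.30, all still called. From TC to PC the value was -0.06, with an interval from -0.59 to 0.47. KDM6B fell by 1.51 from PC to RC (SE 0.25, adjusted p 0.000161). Its RC difference from CC was -0.64 (SE 0.25, adjusted p 0.0610), which became -0.92 without CC replicate 2 (adjusted p 0.00111) and -0.21 without CC replicate 3, and which DESeq2 called (-0.63, adjusted p 0.0209).

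KDM1A (chromosome 1, 23019443 to 23083689, plus strand), the H3K4 demethylase of the CoREST repressor complex, had the smallest spread in CC of the 10. It had 183, 198 and 189 CPM in the CC libraries, 122, 122 and 119 in those of TC, 107, 105 and 111 in those of PC and 231, 238 and 229 in those of RC. The 4 groups did not overlap. KDM1A changed by -0.65 in TC (SE 0.05, adjusted p 2.8e-07) and by -0.82 in PC (SE 0.05, adjusted p 3.7e-08) against CC, and by -0.17 from TC to PC (SE 0.05, adjusted p 0.0328). It rose by 1.11 from PC to RC (SE 0.05, adjusted p 2.8e-09), to 0.29 above CC (SE 0.05, adjusted p 0.000987).

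KDM5A and KDM5B, close relatives that erase the same H3K4 mark, moved apart under the drug. KDM5A (chromosome 12, 280057 to 389320, minus strand) had 127, 106 and 131 CPM in the CC libraries, 160.3, 153 and 161 in those of TC, 132, 131 and 133 in those of PC and 117, 125 and 129 in those of RC. TC lay above all other libraries, which were mixed. KDM5A rose by 0.38 in TC against CC (SE 0.08, adjusted p 0.000652). Its PC difference was 0.12 (SE 0.08, adjusted p 0.173; 0.19 with adjusted p 0.0377 without CC replicate 3), and its RC difference 0.03, with an interval from -0.13 to 0.19.

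KDM5B (chromosome 1, 202724495 to 202808487, minus strand) had 127, 123 and 167 CPM in the CC libraries, 96.3, 114 and 113 in those of TC, 89.9, 84.5 and 86.1 in those of PC and 118, 119 and 120.1 in those of RC. PC was the lowest group, and RC lay between TC and CC with no overlap. KDM5B changed by -0.37 in TC (SE 0.11, adjusted p 0.00850) and by -0.68 in PC (SE 0.11, adjusted p 0.000104) against CC, and it rose by 0.45 from PC to RC (SE 0.11, adjusted p 0.00215). The RC difference from CC was -0.22 (SE 0.11, adjusted p 0.114; -0.31 with adjusted p 0.0389 without CC replicate 2). Neither of these demethylases had a higher level in PC than in CC that passed the test.

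Ratios of related genes within each library do not depend on how libraries are scaled. The KDM5B to KDM5A ratio was 1.00, 1.16 and 1.28 in the CC libraries, 0.601, 0.743 and 0.705 in those of TC, 0.682, 0.646 and 0.648 in those of PC and 1.00, 0.953 and 0.931 in those of RC. It was thus 1.67-fold lower in TC and 1.73-fold lower in PC than in CC, with no overlap. The ratio of EZH2 to its relative EZH1 was 1.11, 1.55 and 1.90 in the CC libraries and 0.304, 0.307 and 0.333 in those of TC. It was 0.649, 0.801 and 0.920 in those of PC and 1.97, 2.03 and 1.84 in those of RC. Against CC this ratio was 4.71-fold lower in TC and 1.90-fold lower in PC. EZH1 itself had 33.4 ± 3.99 CPM in CC, 36.5 ± 1.52 in TC, 28.5 ± 2.16 in PC and 31.6 ± 1.76 in RC (SD, n = 3), and in PC it was lower than in CC (-0.23 on the log2 scale, SE 0.09, adjusted p 0.0433) and than in TC (-0.36, SE 0.09, adjusted p 0.0145).

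UHRF2, a relative of UHRF1, had 28.6 ± 2.44 CPM in CC, 49.3 ± 1.55 in TC, 57.1 ± 0.81 in PC and 45.5 ± 3.13 in RC (SD, n = 3). It was thus higher than CC in each of the other groups (log2 fold changes 0.78, 1.00 and 0.67, SE 0.07 each, edgeR adjusted p 1.3e-06, 1.4e-07 and 5.9e-05). The UHRF1 to UHRF2 ratio was 4.44-fold lower in TC and 2.50-fold lower in PC than in CC, and overlapped CC in RC. The DNMT3A to DNMT1 ratio was 2.66-fold higher in TC, 2.50-fold higher in PC and 1.85-fold lower in RC than in CC, with no overlap in any of the 3. A two-sided exact permutation test of 3 libraries against 3 cannot go below p = 0.1, which all these ratios reached in TC and PC. In RC it gave 0.2 for KDM5B to KDM5A and for EZH2 to EZH1, 0.7 for UHRF1 to UHRF2 and 0.1 for DNMT3A to DNMT1. Over these 12 tests the Benjamini-Hochberg adjusted values were 0.133, 0.218 and 0.700 for p of 0.1, 0.2 and 0.7.

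A further ratio, chosen after the values were seen, sets UHRF1 against the enzyme it recruits. The UHRF1 to DNMT1 ratio was 0.195, 0.214 and 0.222 in the CC libraries, 0.166, 0.167 and 0.180 in those of TC, 0.364, 0.339 and 0.359 in those of PC and 0.245, 0.235 and 0.223 in those of RC. PC stood above every library of the other groups, 2.07-fold over TC, which is a description, since the pair was picked for it.

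**Figure D3:**
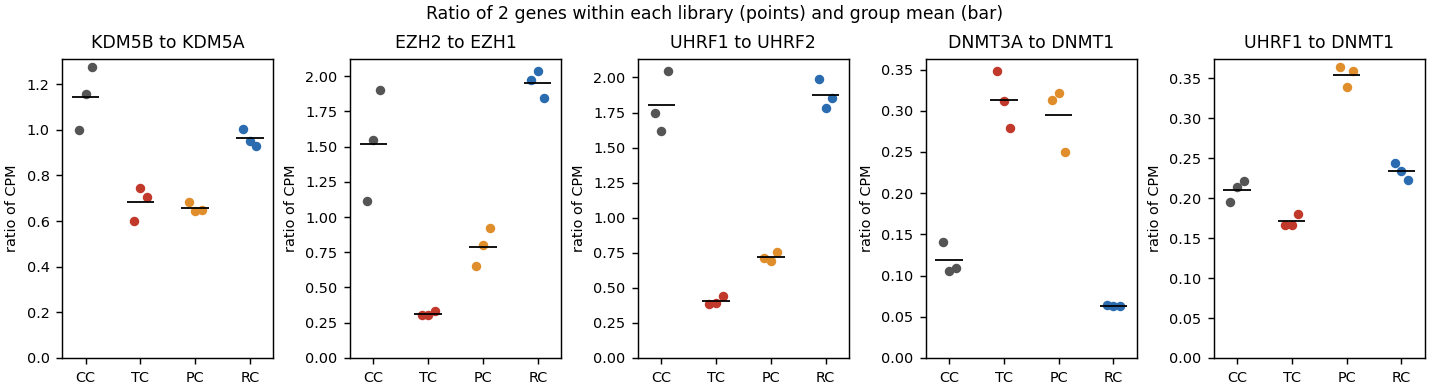
Ratio of the CPM of 2 genes within each library (vertical axis, from 0) in CC, TC, PC and RC; points are libraries and bars group means. The UHRF1 to DNMT1 ratio, chosen after the values were seen, is highest in PC (0.339 to 0.364), and the DNMT3A to DNMT1 ratio is lowest in RC.

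The promoters of UHRF1, HELLS, EZH2 and DNMT1 are shown because E2F factors are known to act on promoters of genes expressed as cells enter S phase. These genes were picked with their changes from TC to PC known. Each run spans 250 bases before to 50 after a RefSeq start (GRCh38.p14), read 5′ to 3′ on the strand of the gene. Capitals mark the letters TTTCCCGC or TTTGGCGC, which E2F factors can bind, or the reverse complement of either. Other letters that E2F factors may bind were not searched, so a run without capitals is not shown to lack such a site. The DNMT1 run holds the similar letters gcgcgaaa, which were neither searched nor marked. The UHRF1 window lies at chr19:4909251-4909550 (plus strand), that of HELLS at chr10:94545538-94545837 (plus), that of EZH2 at chr7:148884242-148884541 (minus) and that of DNMT1 at chr19:10194904-10195203 (minus).
UHRF1: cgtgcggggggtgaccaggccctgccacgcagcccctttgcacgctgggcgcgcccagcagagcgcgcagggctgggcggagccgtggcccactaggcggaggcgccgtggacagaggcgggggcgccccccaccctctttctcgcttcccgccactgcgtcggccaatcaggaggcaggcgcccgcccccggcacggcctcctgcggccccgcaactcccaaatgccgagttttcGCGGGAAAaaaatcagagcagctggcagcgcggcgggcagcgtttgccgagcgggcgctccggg
HELLS: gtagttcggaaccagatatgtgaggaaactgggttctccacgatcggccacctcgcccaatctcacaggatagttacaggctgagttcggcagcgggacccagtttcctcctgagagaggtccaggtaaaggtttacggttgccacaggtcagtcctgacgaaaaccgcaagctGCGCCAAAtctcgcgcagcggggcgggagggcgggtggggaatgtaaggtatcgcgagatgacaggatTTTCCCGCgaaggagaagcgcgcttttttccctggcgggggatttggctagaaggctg
EZH2: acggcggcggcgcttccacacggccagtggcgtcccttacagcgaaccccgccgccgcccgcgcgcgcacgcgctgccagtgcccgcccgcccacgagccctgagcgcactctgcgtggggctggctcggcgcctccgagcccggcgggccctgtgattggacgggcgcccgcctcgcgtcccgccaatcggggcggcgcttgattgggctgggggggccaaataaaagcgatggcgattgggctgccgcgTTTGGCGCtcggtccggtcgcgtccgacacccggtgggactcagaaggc
DNMT1: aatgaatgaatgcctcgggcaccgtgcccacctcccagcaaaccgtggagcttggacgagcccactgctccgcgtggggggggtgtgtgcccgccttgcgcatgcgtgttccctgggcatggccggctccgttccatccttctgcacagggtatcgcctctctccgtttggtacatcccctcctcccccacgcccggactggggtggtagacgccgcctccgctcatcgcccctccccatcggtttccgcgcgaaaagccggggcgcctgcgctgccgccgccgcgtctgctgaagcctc
UHRF1 held GCGGGAAA, beginning 14 bases before the start. HELLS held GCGCCAAA 76 bases and TTTCCCGC 8 bases before it, and EZH2 held TTTGGCGC at 1 base after its start. UHRF1 and EZH2 have more than 1 listed start, and the window shown for each is the one that held the letters, which their other windows did not.

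All 10 genes matched the promoter table, with 19 promoters between them because several have more than 1 start. On either strand, TTTCCCGC was in 1.63% and TTTGGCGC in 0.652% of the 35116 promoters listed, and one or the other in 2.27%, which is 2.75% of the 27305 genes listed. Of the 10 genes, 3 held one of them (UHRF1, HELLS and EZH2). That count covers these letters only and does not show that DNMT1 or the other genes lack an E2F site. In the S phase list described next, without its members among the 10, 14 of the 31 genes with a listed promoter held one (45.2%). The letters TTTGAA, the core of a promoter element of late cell cycle genes, were in 15.2% of promoters and, among these genes, at 1 start of DNMT3A (chr2:25252082-25252381). A match is a description of letters and not a site shown to be used, and the motifs and genes were chosen with earlier results known. Any part of such letters in the changes of the genes was not tested.

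The S phase list distributed with Seurat was set beside the 10 genes because UHRF1 and HELLS are members of it and DNA methylation is copied in S phase. For its other 41 genes, the median against CC was -1.80 on the log2 scale in TC (quartiles -2.71 and -1.26), -1.28 in PC (-1.62 and -0.61) and 0.57 in RC (0.40 and 0.73). From TC to PC their median was 0.54 (0.32 and 1.05). EZH2 and HELLS lay between the quartiles in TC. UHRF1 (-1.37) lay there too, but in PC its -0.33 was above the upper quartile. DNMT1 and DNMT3B lay above the upper quartile in TC (-1.07 and -0.97), between the quartiles in PC (-1.08 and -0.92), and below the lower quartile from TC to PC (-0.01 and 0.06). In the whole list of 43 genes, 39 were lower and 0 higher in TC, 38 lower and 1 higher in PC, and 37 higher and 0 lower in RC, each against CC, and from TC to PC 31 were called higher and 0 lower. The counts of the whole list include UHRF1 and HELLS. The medians of the other 41 genes had the same direction as UHRF1, HELLS and EZH2, with UHRF1 less far below CC in PC. The part of S phase genes in the changes of the 10 genes was not tested.

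**Figure D4:**
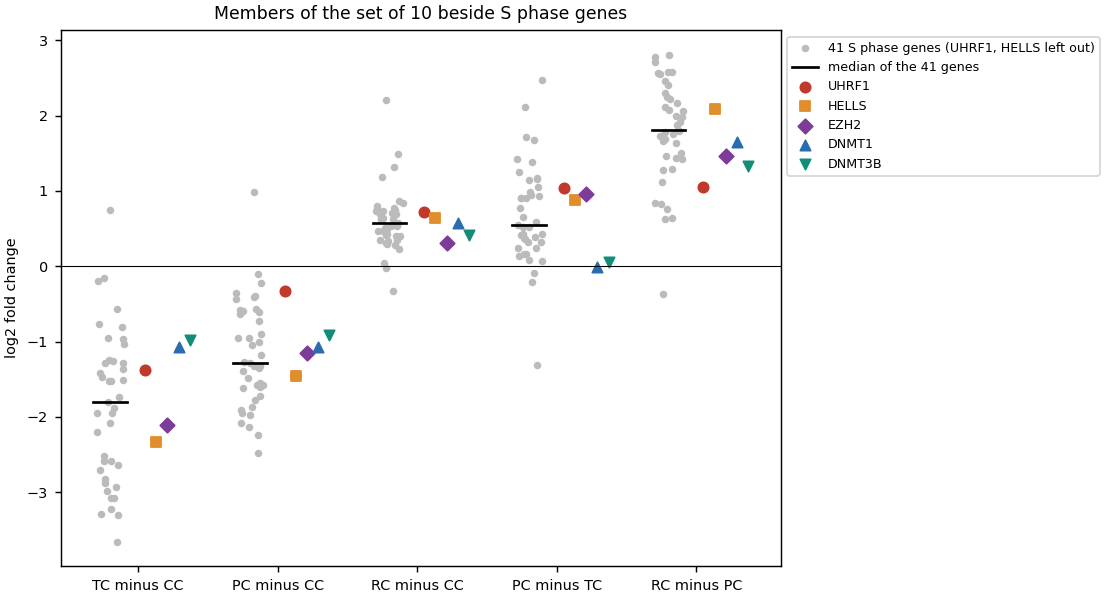
Log2 fold change (vertical axis) of 41 S phase genes (grey points, black bar for the median) and of UHRF1, HELLS, EZH2, DNMT1 and DNMT3B in 5 comparisons. In PC minus TC the S phase median is 0.54 and UHRF1, HELLS and EZH2 lie above it, while DNMT1 and DNMT3B lie near 0.

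Other genes of the same pathways were counted from lists written by name. Of 17 tested partners of DNA methylation, 6 were higher and 7 lower in TC, 8 and 8 respectively in PC, and 6 and 2 in RC, each against CC (medians 0.15, 0.21 and 0.07). CDCA7, the partner through which HELLS remodels nucleosomes, had 37.1 CPM in CC, 2.95 in TC, 6.65 in PC and 36.5 in RC (log2 fold change -3.66 in TC, SE 0.13, adjusted p 5.1e-10), and PCLAF, a binder of the replication clamp, changed by -3.97 (SE 0.17, adjusted p 1.3e-09). TET2 and TET1, which oxidise methylated cytosine, are named here after their values were seen. TET2 had 18.5 ± 7.04 CPM in CC, 42.5 ± 4.41 in TC, 63.6 ± 3.17 in PC and 19.4 ± 1.00 in RC (SD, n = 3; log2 fold change 1.78 in PC, SE 0.20, adjusted p 5.7e-06). TET1 had 7.08, 3.24, 4.44 and 9.45 CPM in the same order.

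Among 10 tested partners of EZH2 in PRC2, 0 were higher and 5 lower in TC, 1 higher and 7 lower in PC, and 3 higher and 0 lower in RC (medians -0.29, -0.42 and 0.23). PHF19, which guides PRC2 to chromatin, changed by -1.28 in TC (SE 0.08, adjusted p 3.2e-08) and RBBP7, a histone chaperone subunit, by -1.04 (SE 0.08, adjusted p 3.9e-07). In PC, RBBP7 stayed at -1.04 and PHF19 was at -0.72. From PC to RC, 7 of the 10 rose and 0 fell. The 11 genes of H3K9 methylation, a repressive mark that UHRF1 reads, had 1 higher and 7 lower in TC, 2 and 6 respectively in PC, and 7 and 1 in RC (medians -0.23, -0.29 and 0.33). SUV39H1, a writer of that mark, had 27.1 CPM in CC, 9.68 in TC, 14.6 in PC and 43.1 in RC, with log2 fold changes of -1.49, -0.89 and 0.67 against CC (SE 0.09 each, adjusted p 4.1e-08, 3.0e-06 and 0.000208).

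The 11 genes of the LSD1-CoREST complex, in which KDM1A works, were split, with 4 higher and 5 lower in TC and in PC, and 3 higher and 4 lower in RC (medians -0.19, -0.15 and -0.23). HDAC1, a deacetylase of that complex, had 239 ± 2.85 CPM in CC, 597 ± 28.0 in TC, 497 ± 33.4 in PC and 187 ± 5.89 in RC (SD, n = 3), a rise of 1.32 in TC on the log2 scale (SE 0.06, adjusted p 3.6e-09) where KDM1A fell by 0.65. HDAC2, its other deacetylase, named after its values were seen, changed by -0.59 in TC (SE 0.07, adjusted p 1.8e-05) and by -0.63 in PC (SE 0.07, adjusted p 9.5e-06). Of 18 other histone demethylases, 7 were higher and 6 lower in TC, 4 and 5 respectively in PC, and 5 and 4 in RC (medians 0.16, -0.03 and -0.02). RIOX1, a nucleolar oxygenase counted with them, changed by 1.23 in TC (SE 0.08) and by 1.49 in PC (SE 0.08). KDM3A, which acts on H3K9, changed by 0.93 in TC (SE 0.06, adjusted p 7.1e-08), and JMJD1C by -1.10 in PC (SE 0.16, adjusted p 5.8e-05). The 15 genes of the complexes that write the H3K4 mark had 7 higher and 3 lower in TC, 5 and 3 respectively in PC, and 4 and 0 in RC (medians 0.23, 0.17 and 0.14), led in TC by KMT2C, an enhancer methyltransferase (0.81, SE 0.10, adjusted p 1.3e-05).

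Of 15 histone deacetylases, 6 were higher and 3 lower in TC, 5 and 4 respectively in PC, and 2 and 9 in RC (medians 0.04, 0.04 and -0.27). HDAC9, a class IIa member that acts with MEF2 factors, had 12.5 ± 2.27 CPM in CC, 113 ± 6.29 in TC, 75.1 ± 2.19 in PC and 12.8 ± 0.501 in RC (SD, n = 3), 3.18 higher on the log2 scale in TC (SE 0.11, adjusted p 3.1e-10). Among 11 acetyltransferases and acetyl-lysine readers of the BET family, 4 were higher and 1 lower in TC, 3 and 2 respectively in PC, and 1 and 0 in RC (medians 0.27, 0.06 and -0.04). KAT2B, a coactivator acetyltransferase, led them at 1.94 in TC (SE 0.10, adjusted p 7.8e-09) and 1.86 in PC (SE 0.10, adjusted p 1.1e-08). Of 22 genes of SNF2 remodellers, the family of HELLS, and of subunits of their complexes (such as ARID1A, PBRM1 and BPTF), 5 were higher and 8 lower in TC, 2 and 11 respectively in PC, and 4 and 2 in RC (medians -0.08, -0.32 and 0.12), with TTF2 at -1.46 and CHD3 at 1.00 in TC (adjusted p 1.1e-08 and 2.0e-07).

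**Figure D5:**
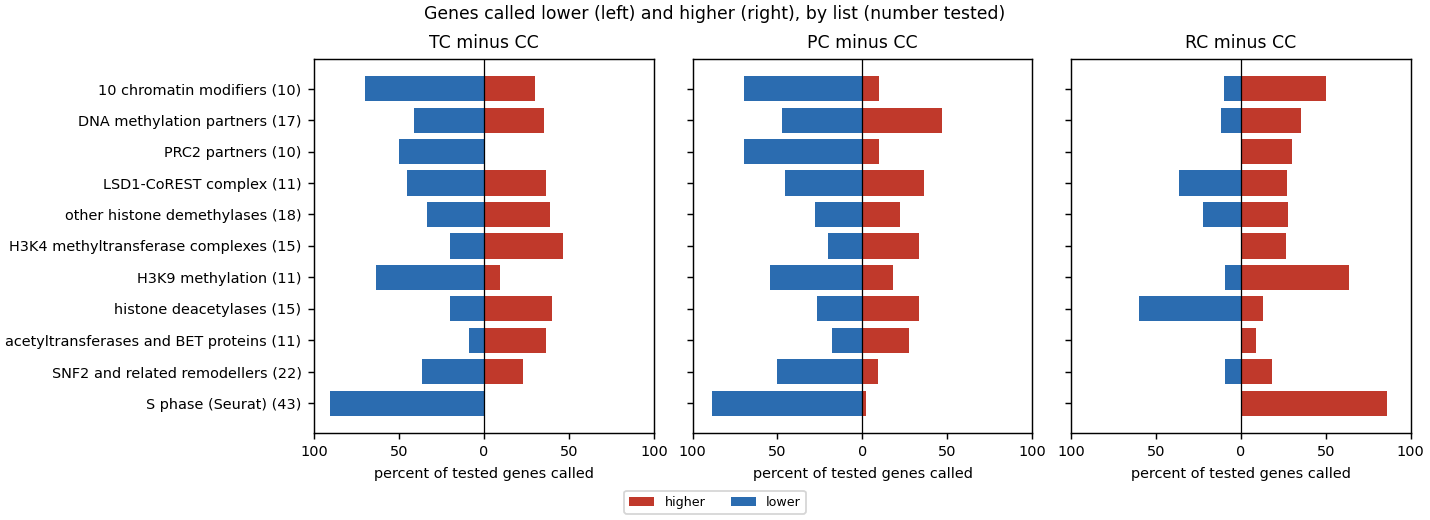
Percent of the tested genes of each list (number tested in brackets) called lower (left, blue) and higher (right, red) at an adjusted p under 0.05 in TC, PC and RC against CC. The 10 genes have 7 lower in TC and in PC and 5 higher in RC, and over all tested genes 34.7%, 35.9% and 19.1% were lower and 33.2%, 33.2% and 18.2% higher.

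Likeness of pattern was measured as the root mean square difference of centred log2 CPM over the 12 libraries, and 0 would be an identical course. Between pairs of the 10 genes it was smallest for KDM5A and DNMT3A (0.201), DNMT1 and DNMT3B (0.208), KDM1A and DNMT3B (0.235) and EZH2 and HELLS (0.253), and largest for HELLS and KDM6B (1.85). Over all tested genes, the gene nearest to KDM1A was SF3B1, a splicing factor gene (0.0297), closer than the nearest gene of any other member. Nearest to DNMT1 was NUP155, of the nuclear pore (0.0627), to UHRF1 ZWILCH, of the kinetochore (0.121), to HELLS the condensin gene SMC4 (0.118) and to EZH2 RTKN2 (0.142). SUV39H2, a writer of H3K9 methylation, was the next nearest to UHRF1 (0.144). KDM5B was nearest to SMARCAD1, a remodeller (0.0905), KDM5A to FKBP15 (0.0609), DNMT3A to NSMF (0.0831), DNMT3B to CCDC85C (0.138) and KDM6B to BRPF3 (0.197). These likenesses are descriptions over libraries that share groups and carry no test.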

How the data were processed

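RNA sequencing of 12 A375 libraries (4 groups of 3) was used. The values deposited were raw counts of reads on each gene, not normalized. Per the submitters' processing notes, the authors used fastp 0.20.1, HISAT2 2.2.1 and HTSeq 0.13.5 with GRCh38.p13. Strand setting and the handling of reads with several alignments are not given in the sources used here.

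Genes with a mean scaled count of at least 10 were tested (15916 genes). In edgeR 4.0.16 (R 4.3.3), a quasi-likelihood fit took all 12 libraries, with 1 mean for each group and TMM factors (0.965 to 1.02), with 8 residual degrees of freedom and a common biological coefficient of variation of 0.182. Tests were two-sided (glmQLFTest), with Benjamini-Hochberg adjustment over all tested genes and calls at an adjusted p under 0.05. Change past 1.5-fold was called with glmTreat at an adjusted p of at most 0.05. Lists are given by counts and medians. SDs are of CPM, which corrects counts for depth and TMM factor. The floor of 3 counts covers counting error only. The 95% intervals of log2 fold changes come from the quasi-likelihood fit and include the spread between libraries. The procedure was tested on simulated data, and no library was a duplicate of another.

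The 10 genes, the lists and the motifs were chosen with earlier results of these data known. Genes named from lists were the 2 of each list with the largest absolute log2 fold change in TC, PC or RC against CC among those called and with a mean scaled count of at least 100, and for each of the 10 genes the 3 of most similar pattern. Locations and main transcript lengths came from GENCODE v44 (GRCh38), not the counting annotation, and promoters from RefSeq (GRCh38.p14). Alternatives were library totals, RLE and upper-quartile scaling, a summed count of at least 2, DESeq2 1.42.0, only the 2 groups compared, a replicate block, and leaving out each library.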

Additional observations from a re-analysis of the deposited data

How the results depend on the processing

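Of 50 values (10 genes in 5 comparisons), 38 stayed on the same side of an adjusted p of 0.05 under all 19 alternatives, and no called value changed direction. The largest falls (HELLS, EZH2, UHRF1, DNMT1, DNMT3B and KDM1A in TC) were among those kept. The number of the 10 genes called ranged, over the alternatives, from 9 to 10 in TC, 7 to 9 in PC and 4 to 8 in RC against CC, and stayed at 9 from PC to RC. In PC against TC it was 6, and between 3 and 6 with 1 library left out. Past 1.5-fold it was 5 in TC and in PC against CC, between 4 and 6 over the alternatives in both, with DNMT3B the gene lost. It was 2 in PC against TC, and between 1 and 3 with 1 library left out. It was 0 in RC against CC, and between 0 and 1 with 1 library left out. The log2 difference of the UHRF1 to UHRF2 ratio between RC and CC, 0.06, lay between -0.016 and 0.15 with 1 library left out, so its direction is not set. Of the list medians, 4 moved by more than the spread: without CC replicate 2 that of the acetyltransferases and BET proteins was 0.02 in TC and that of the DNA methylation partners 0.04 in PC, and without CC replicate 3 that of the acetyltransferases and BET proteins was 0.34 in PC and that of the remodellers and their subunits 0.31 in RC, each against CC.

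Correlations of deviations ran from -0.037 to 0.155 in 18 same-numbered pairs of libraries of different groups, beside -0.121 to 0.042 in 36 pairs of unlike number. Among CC, TC and PC every same-numbered pair was positive (0.009 to 0.155), and pairs of unlike number ran from -0.121 to 0.019. Same-numbered pairs with RC ran from -0.037 to 0.012. The labels do not say that a number marks a shared culture. The main fit did not treat the numbers as pairs, and a replicate block was an alternative. With a replicate block, 1 call at an adjusted p under 0.05 changed, DNMT3B in RC against CC, which became called (0.43, adjusted p 0.0366), and 1 past 1.5-fold, KDM6B in TC against CC, which was gained. Values of DNMT3B rest on 130 to 468 counts per library. The spread of CC, widest in KDM6B, limits every comparison with CC, and the cause of that spread was not tested.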

Other observations

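Germline genes are a known readout of promoter DNA methylation, so 16 of them were listed beside the 10 genes. Of these, 12 were too low to test, and DAZL, DDX4, SYCE1, BRDT, HORMAD1, TDRD1 and TEX101 had group means between 0 and 0.0175 CPM, under the level of 3 counts in a library. Of the 4 tested, 2 were higher and 2 lower in TC against CC, 1 and 1 in PC, and 2 and 0 in RC. SYCP3 and CTAG2, both read at low depth, are named here outside the rule used for lists, with their values known. SYCP3, of the meiotic chromosome axis, had 9 to 12 counts in the CC libraries, 15 to 23 in TC, 20 to 37 in PC and 11 to 21 in RC. SYCP3 changed by 0.94 in TC (SE 0.34, adjusted p 0.0276) and by 1.38 in PC (SE 0.34, adjusted p 0.0029) against CC. CTAG2 went the other way, by -0.91 in TC (SE 0.26, adjusted p 0.0077) and by -0.43 in PC (SE 0.25, adjusted p 0.149). CTAG2 had 0.873 CPM in CC, 0.468 in TC, 0.648 in PC and 1.02 in RC. MAGEA4 had 906 CPM in CC, 1279 in TC, 997 in PC and 1089 in RC, and changed by 0.50 on the log2 scale in TC (SE 0.07, adjusted p 4.7e-05). MAGEA1 had 76.5 CPM in CC, 56.5 in TC and 56.1 in PC, and changed by -0.44 in TC (SE 0.08, adjusted p 0.000453). Both belong to a family of similar genes, and how reads with several alignments were counted is not given, so their levels are uncertain. DNA methylation itself was not measured here.

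Of the 10 melanoma and melanocyte markers, DCT, PMEL and TYRP1 had their highest group mean in TC (6456, 616 and 20.3 CPM) and SOX10 and MCAM as well (1046 and 1784 CPM). TYR was also highest in TC (4.88 CPM), and MLANA and S100A1 were highest in PC (1.58 and 168.5 CPM). S100B was lowest in TC (140.5 CPM), and MITF was highest in CC (362 CPM, against 321 in TC and 221 in PC). DCT and PMEL had a wide spread in TC (SD 1317 and 199 CPM).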
